A study of Homo sapiens with 33 samples.

Results

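The subject is 9 genes of DNA damage bypass by translesion synthesis, POLH, POLI, POLK, POLQ, REV1, REV3L, MAD2L2, RAD18 and PCNA, chosen by symbol and all found among the 29744 genes of the expression tables. Poly(A) RNA of 11 established human lines of high-grade serous ovarian carcinoma was sequenced, with 3 libraries a line and 33 in all. The lines formed 4 families of shared origin. OVCAR3 and OVCAR4 each had a ResA and a ResB derivative that the study obtained separately by repeated short cisplatin pulses with recovery between them. PEA1 and PEA2 came from 1 patient, and PEO1, PEO4 and PEO6 from another, so their differences also hold whatever changed in those tumours besides the drug response. OVCAR3, OVCAR4, PEA1 and PEO1 were the platinum-sensitive lines and the other 7 the platinum-resistant ones, as given by the study and not by the sample labels, which name the line and the replicate. Nothing states that the 3 replicates of a line were separate cultures, so p-values measure the spread between these libraries, which may be technical.

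Cisplatin and carboplatin leave adducts and crosslinks on DNA that stop the replicative polymerases. In translesion synthesis, RAD18 attaches ubiquitin to the sliding clamp PCNA at a stalled fork, and the marked clamp recruits specialised polymerases that can insert a base opposite the damage (POLH, POLI, POLK and REV1) or extend from it (polymerase zeta, whose catalytic subunit is REV3L and whose small subunit REV7 is encoded by MAD2L2). POLH bypasses platinum adducts on neighbouring guanines, REV1 serves as a scaffold for the other polymerases, and POLQ joins broken ends by microhomology besides its bypass activity.

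All 9 genes had a promoter window in RefSeq (GRCh38.p14), from 250 bases before to 50 after an annotated start, and PCNA, REV3L and MAD2L2 had a second window. The windows of POLI and REV1 are shown first because these 2 genes rose and fell together from library to library, as described below, and because they were the members that held the E-box CACGTG, in capitals, a sequence bound by MYC and related factors that was present in 7.26% of 35116 RefSeq promoter windows. The POLI window is chr18:54269324-54269623 on the plus strand and the REV1 window chr2:99489968-99490267 on the minus strand.
POLI: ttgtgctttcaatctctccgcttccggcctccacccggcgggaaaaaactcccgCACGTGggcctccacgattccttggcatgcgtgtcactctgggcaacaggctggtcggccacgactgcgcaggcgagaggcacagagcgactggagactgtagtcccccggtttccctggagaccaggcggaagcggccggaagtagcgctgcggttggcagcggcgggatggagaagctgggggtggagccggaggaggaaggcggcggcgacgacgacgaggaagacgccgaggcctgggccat
REV1: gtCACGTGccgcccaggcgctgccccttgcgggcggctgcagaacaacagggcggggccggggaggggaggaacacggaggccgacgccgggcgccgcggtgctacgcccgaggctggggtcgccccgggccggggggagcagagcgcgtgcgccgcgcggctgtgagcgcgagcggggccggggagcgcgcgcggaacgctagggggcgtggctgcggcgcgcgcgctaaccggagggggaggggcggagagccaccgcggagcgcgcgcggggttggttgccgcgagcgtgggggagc
PCNA and REV3L are shown because their levels moved furthest, and in opposite directions, between PEO1 and PEO4. Both windows held the E2F-type sequence TTTCCCGC or its reverse complement GCGGGAAA, in capitals, which stood in 1.63% of the windows and, of the other members, in that of POLI. PCNA also held 3 matches to CCAAT or its reverse complement ATTGG, in capitals too, found in 34.6% of the windows. The PCNA window is chr20:5126573-5126872 and the REV3L window chr6:111483169-111483468, both on the minus strand, and the latter belongs to a downstream start. The other window of each of these genes held no E2F-type match.
PCNA: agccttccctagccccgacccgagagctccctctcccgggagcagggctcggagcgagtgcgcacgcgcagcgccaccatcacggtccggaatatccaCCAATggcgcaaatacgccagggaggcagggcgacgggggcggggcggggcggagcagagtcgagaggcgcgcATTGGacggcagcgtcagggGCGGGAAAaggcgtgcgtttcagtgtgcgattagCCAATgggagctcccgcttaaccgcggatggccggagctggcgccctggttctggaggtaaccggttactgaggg
REV3L: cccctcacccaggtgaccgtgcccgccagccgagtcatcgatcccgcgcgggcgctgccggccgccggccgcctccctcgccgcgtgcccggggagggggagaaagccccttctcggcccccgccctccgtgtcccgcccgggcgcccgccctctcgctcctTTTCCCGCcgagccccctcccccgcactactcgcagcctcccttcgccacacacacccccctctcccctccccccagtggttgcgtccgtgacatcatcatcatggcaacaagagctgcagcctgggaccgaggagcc
A match is a description of the letters and not a binding site, and the motifs to show were picked after the expression values had been seen.

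Libraries held 18058985 to 43394009 estimated counts, and the 9 genes had 102 to 15425 estimated counts in each library. In 32 of 33 libraries the most similar library came from the same line. The exception was replicate 1 of OVCAR4 ResA, which was most similar to replicate 2 of the parent OVCAR4. The share of counts on the mitochondrial rRNAs RNR1 and RNR2 ran from 1.12% to 14.8% and set some libraries apart within their line. It was 9.23% and 13.1% in replicate 1 of OVCAR4 ResA and OVCAR4 ResB against 2.02% to 2.47% in their replicates 2 and 3. In the parent OVCAR4 the order was the reverse, with 5.18% in replicate 1, more in replicates 2 and 3, and 14.8% in replicate 2. In replicate 3 of OVCAR3 ResB it was 1.12% against 5.97% and 8.88%. Of 9 markers of Mullerian and other epithelia, PAX8, EPCAM, KRT7, KRT8, KRT18 and CDH1 averaged at least 1 TPM in all 11 lines (an abundance scaled to transcript length and to the library's total), MUC16 and KRT19 in 10 and WT1 in 9. Of the leukocyte markers, MS4A1 (B cells) was at 0 in all 33 libraries and CD3E (T cells) in 31, while CD68 reached 1 TPM in 11 lines, CD14 in 4 and PTPRC in 1. Of the fibroblast markers, COL1A1 reached it in 9 lines, LUM in 2, COL3A1 and PDGFRB in 1 each and DCN in 0. In bulk RNA, fewer cells of a type and less RNA per cell cannot be told apart.

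PCNA mRNA stood far above the rest. On the TPM scale, which allows levels of different genes to be compared, PCNA ranked 1 of the 9 in 33 of 33 libraries, with a median over line means of 358 TPM. MAD2L2 ranked 2 in 28 libraries at a median of 48.7 TPM. The other 7 lay close together, from REV1 (15.8 TPM), POLK (14.3), RAD18 (13.1) and POLH (11.7) to POLI (8.78), REV3L (8.49) and POLQ (6.58). By these medians the messages for the clamp and for REV7 were the abundant ones. For MAD2L2 this did not hold in each line. In PEO6 POLI averaged 29.6 TPM and MAD2L2 29.5, and in PEO1 RAD18 averaged 31.8 TPM and MAD2L2 26.1.

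Levels of 1 gene in different lines are given below as normalised counts (estimated counts divided by DESeq2 size factors over all 33 libraries), because on the TPM scale the median change of all genes moved to 0.13, 0.42 and 0.46 (log2) in OVCAR3 ResA, OVCAR4 ResA and OVCAR4 ResB, against -0.02, -0.01 and -0.01 with size factors. POLI varied most between lines, 8.31-fold from OVCAR4 to PEO6, followed by REV3L at 5.54-fold and POLH at 4.55-fold. RAD18, POLK, POLQ, MAD2L2 and PCNA spanned 3.57-, 3.41-, 2.98-, 2.95- and 2.5-fold. REV1 was the most even, at 1.54-fold. When the 11 lines were ordered by their means, most neighbours in the order could not be separated: libraries of adjacent lines overlapped at 10 of 10 steps for POLI, REV1 and PCNA, 9 for POLQ and MAD2L2, 8 for REV3L and RAD18, and 7 for POLH and POLK.

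**Figure D1:**
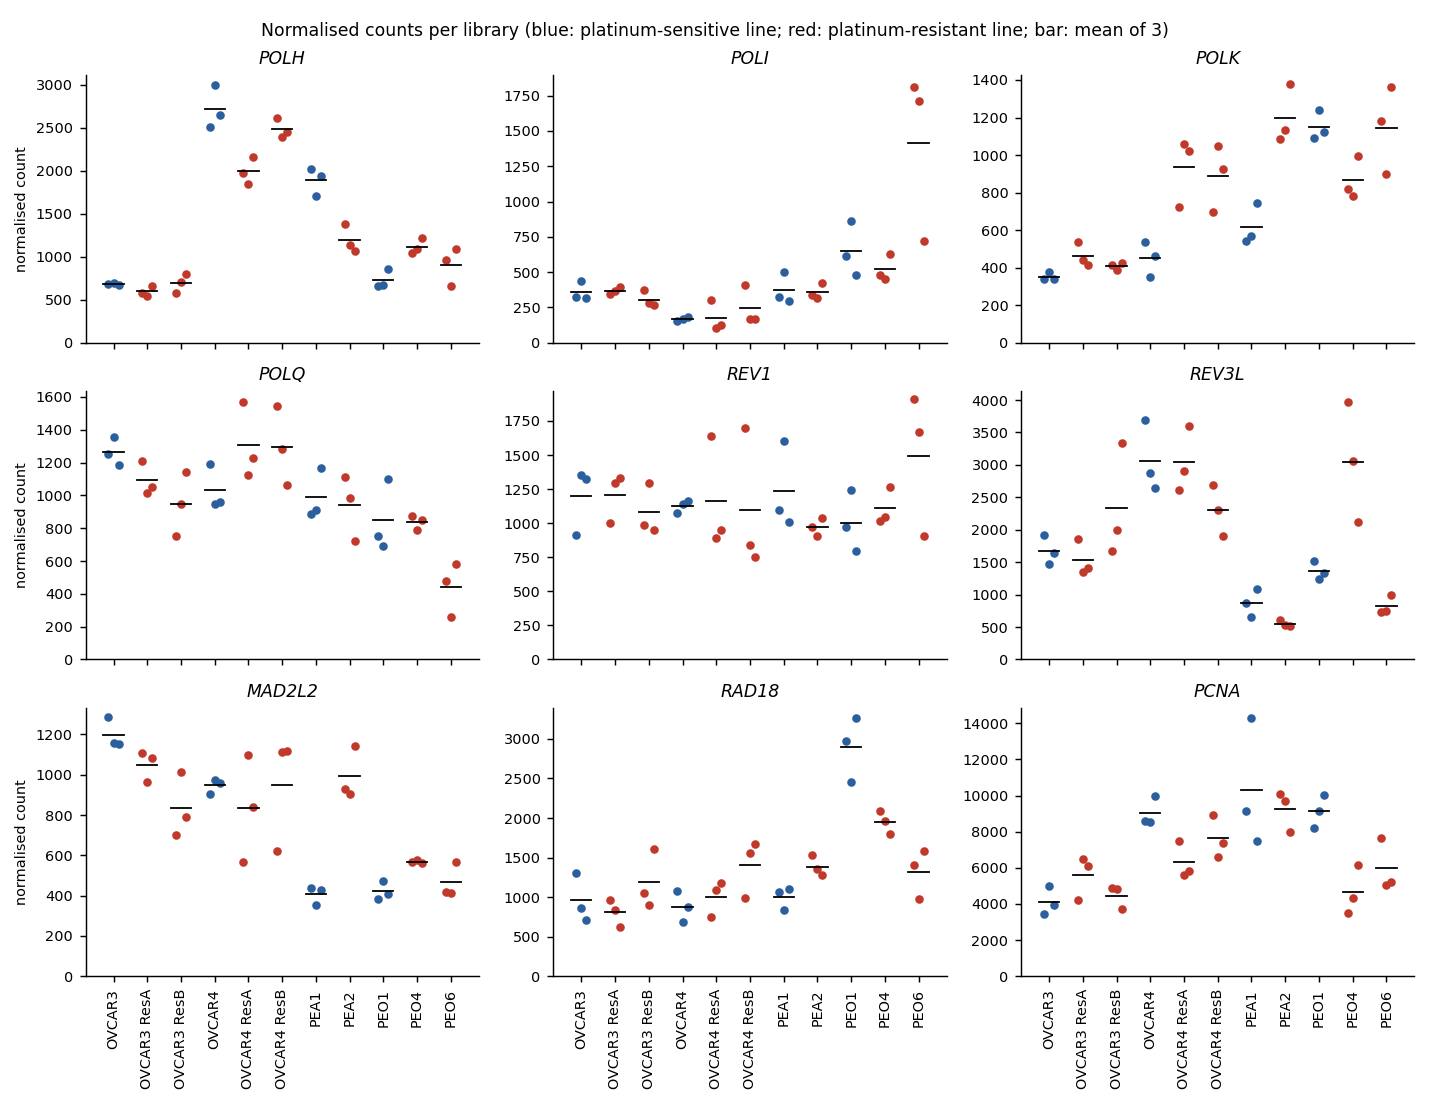
Normalised count (y axis, from 0) of each of the 9 genes in each of the 33 libraries, by line (x axis). Blue points are libraries of platinum-sensitive lines, red points those of resistant lines, and bars are means of 3 libraries. POLH lies at 1848 to 2999 in the OVCAR4 lines and at 544 to 797 in the OVCAR3 lines, whereas REV3L spreads within a family, with means of 3049 in PEO4 and 824 in PEO6.

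For some members lines of 1 family lay together in this order, and for others they did not. POLH, the polymerase eta gene, was highest in OVCAR4 (2718 ± 253, SD, n = 3), OVCAR4 ResB (2487 ± 114) and OVCAR4 ResA (1996 ± 158), then PEA1 (1891 ± 162) and PEA2 (1194 ± 170), and lowest in the 3 OVCAR3 lines (597 to 696). POLI had PEO6 (1415 ± 604), PEO1 (653 ± 195) and PEO4 (520 ± 96.9) at the top and the 3 OVCAR4 lines at the bottom (170 to 248). In TPM the ratio of POLH to POLI was 0.2, 0.161 and 0.77 in the PEO6 libraries and 1.91, 7.79 and 8.63 in those of OVCAR4 ResA, so that replicate 3 of the first line and replicate 1 of the second stood off from the others. The lines of a family were spread for REV3L, where PEO4 ranked 2 and PEO6 10 of the 11, and for POLK, where PEA2 ranked 1 and PEA1 7. RAD18 was highest in PEO1 (2896 ± 408), where the libraries lay above those of every other line, and PEO4 (1951 ± 142) lay apart from the lines on either side of it.

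The 7 resistant lines were tested within families, each over its sensitive relative, by the DESeq2 Wald test with replicate as a block, and a gene was called at a Benjamini-Hochberg adjusted p under 0.05 over all genes tested. Of 63 combinations of 9 genes and 7 pairs, 16 were called, 8 higher and 8 lower in the resistant line. In OVCAR3 ResA 2 of 9 members were called, both higher, where 44.9% of all genes were called (22.0% higher and 22.9% lower). In OVCAR3 ResB 0 of 9 were called, against 7.67% of all genes (4.1% higher and 3.57% lower). OVCAR4 ResA had 1 of 9, higher, against 11.9% (6.68% higher and 5.22% lower), and OVCAR4 ResB 0 of 9 against 17.9% (9.09% higher and 8.77% lower). The selected lines thus held 3 of the 16 calls and the patient pairs the other 13. In PEA2 2 members were higher and 2 lower, against 47.0% of all genes (23.3% higher and 23.8% lower). In PEO4 2 were higher and 2 lower, against 33.3% (16.6% higher and 16.7% lower). PEO6 had 1 higher and 4 lower, against 41.4% (21.2% higher and 20.3% lower). For OVCAR3 ResB and OVCAR4 ResB, where the count was 0, 0 and 1 members had an unadjusted p under 0.05 and the edgeR quasi-likelihood test called 0 in each. With only 9 genes against such backgrounds, the counts are not a result about the set, and its median log2 change ran from -0.11 in OVCAR3 ResA to 0.03 in PEO4. PEO4 and PEO6 were both set against the same PEO1 libraries, as were ResA and ResB against the parent in the OVCAR3 and OVCAR4 families, so those pairs are not independent.

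**Figure D2:**
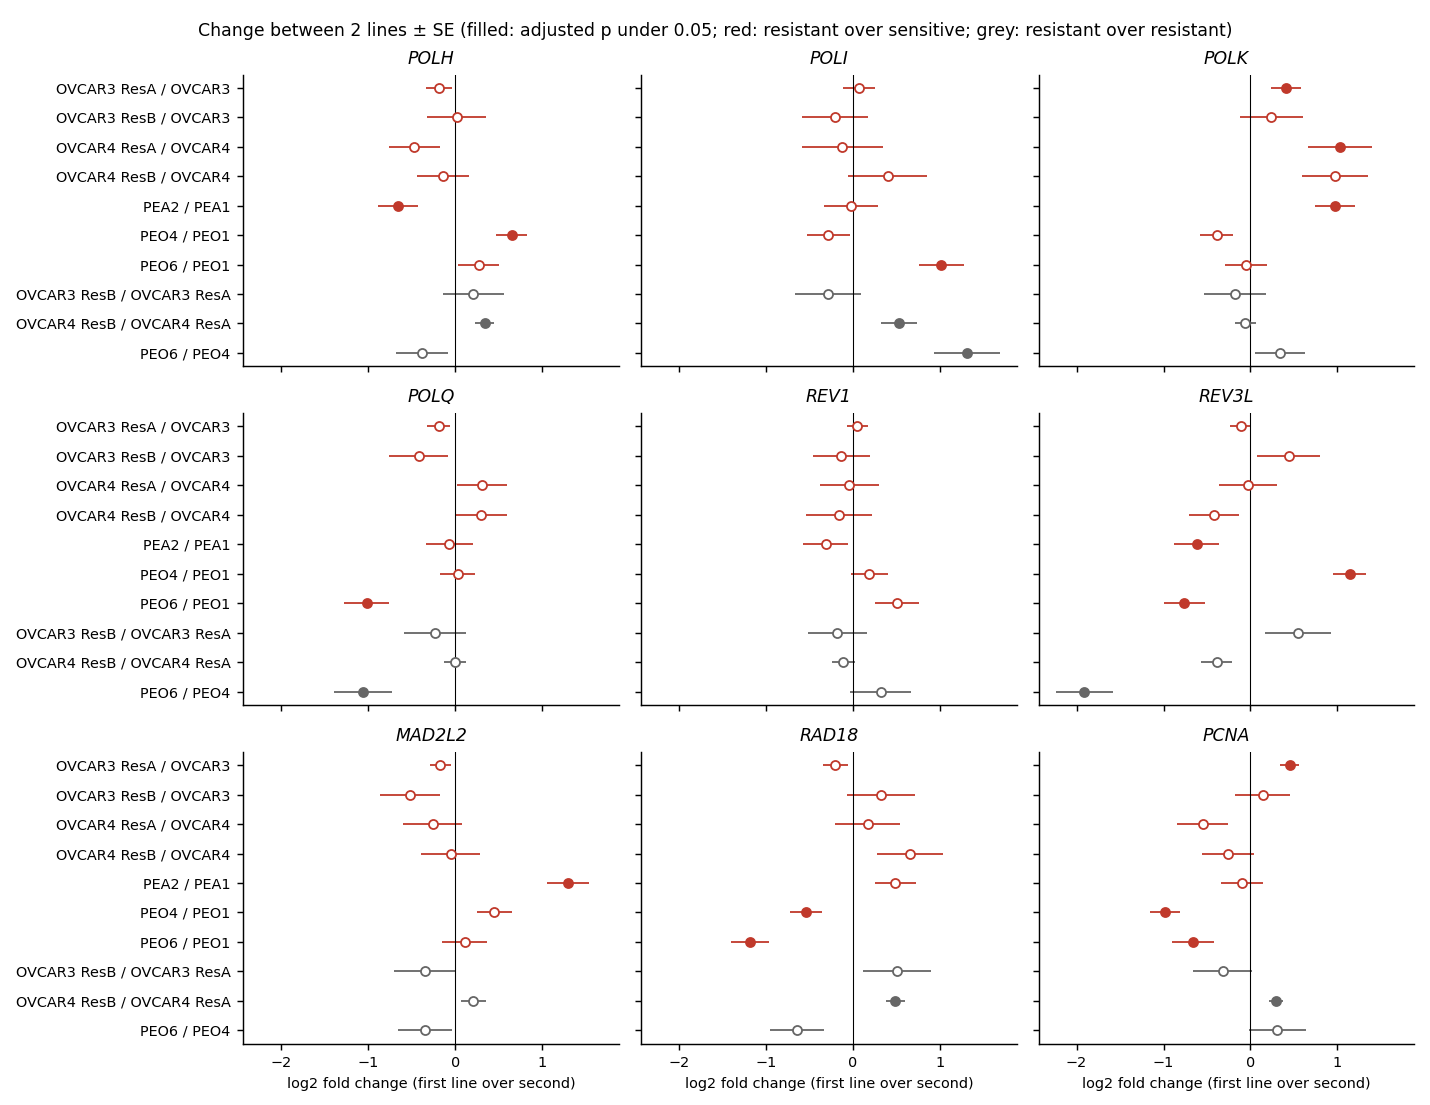
Log2 fold change with its standard error (x axis) for each of the 9 genes in 10 comparisons (y axis; the first line named over the second). Filled points passed an adjusted p under 0.05, red points set a resistant against a sensitive line, and grey points set resistant lines of 1 family against each other. REV3L spans -1.91 to 1.14, POLK lies right of 0 in the OVCAR3, OVCAR4 and PEA pairs, and no REV1 point is filled.

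The clamp PCNA, also the sliding clamp of normal replication, fell in both resistant PEO lines and rose in OVCAR3 ResA. Its normalised counts were 8220, 9127 and 10018 in PEO1, 3523, 4310 and 6142 in PEO4, and 7642, 5021 and 5216 in PEO6. Every PEO4 and PEO6 library lay below every PEO1 library. The log2 change was -0.98 ± 0.17 (SE) in PEO4 (adjusted p = 1.75e-07) and -0.66 ± 0.24 in PEO6 (adjusted p = 0.0165). The PEO4 call held when each replicate was left out in turn, whereas that of PEO6 was lost without replicate 2 (0.222) or 3 (0.175). In OVCAR3 ResA the counts were 4195, 6458 and 6116 against 3434, 5018 and 3927 in OVCAR3, with overlap between the lines but a higher value in each same-numbered pair, and the change was 0.45 ± 0.11 (adjusted p = 0.000184, and 0.0558 without replicate 3). OVCAR4 ResA had 7480, 5596 and 5812 against 8587, 8549 and 9947 in OVCAR4, all below the parent. The change there was -0.55 ± 0.29, not called with the block (adjusted p = 0.236) but called without it (0.0328) or without replicate 1 (0.000479). Without replicate 1, rRNA shares reached 14.8% in OVCAR4, against 2.02% and 2.09% in ResA. In a fit of all 33 libraries the change was -0.52 (adjusted p = 0.11). With the rRNA share as a covariate in place of the replicate block it was -0.21 (adjusted p = 0.461). Across the 11 lines, the library with the highest rRNA share was the highest for PCNA in 7. For the other members this count, in 1 direction each, ran from 4 (REV3L lowest, POLQ highest) to 8 (RAD18 lowest). The share of all genes with such counts is not given.

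Other genes of the replication fork were counted beside PCNA. Of 24 genes for replication fork and S phase, 0 were higher and 17 lower in PEO6 than in PEO1, with 20.3% of all genes lower and a median log2 change of -0.84 against 0.02 over all genes, while in PEO4 3 were higher and 4 lower (16.6% and 16.7% of all genes). In OVCAR3 ResA, where PCNA rose, 5 of the 24 were higher and 10 lower (22.0% and 22.9% of all genes). The part of growth rate or cell cycle phase in the PCNA values was not tested.

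RAD18, the ubiquitin ligase that marks the clamp, fell in the same lines. Its counts were 2972, 2456 and 3260 in PEO1, 2086, 1965 and 1802 in PEO4, and 1402, 972 and 1586 in PEO6. The 3 lines formed 3 groups without overlap, with PEO6 the lowest. RAD18 changed by -1.18 ± 0.22 on the log2 scale in PEO6 (adjusted p = 5.38e-07, kept without each replicate) and -0.54 ± 0.18 in PEO4 (adjusted p = 0.0109, lost without replicate 1 at 0.199). The direct comparison of PEO6 with PEO4 gave -0.64 ± 0.31, which was not called (adjusted p = 0.136).

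In OVCAR4 ResB the RAD18 outcome rested on replicate 1. The counts were 994, 1552 and 1667 in ResB against 1076, 683 and 869 in OVCAR4, so replicate 1 of ResB lay among the parental libraries and the other 2 above them. With all replicates the change was 0.66 ± 0.38 (adjusted p = 0.245), and without replicate 1 of both lines, which were the lowest of ResB and the highest of OVCAR4, it was 1.07 (adjusted p = 6.21e-07). Replicate 1 of ResB was the library with 13.1% mitochondrial rRNA. Across the 11 lines, the library with the highest rRNA share was the one with the lowest RAD18 in 8, with no share over all genes beside it. In a fit of all 33 libraries with the replicate block the ResB change was 0.70 (adjusted p = 0.0264). With the rRNA share as a covariate in place of that block it was 0.29 (adjusted p = 0.123).

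POLH, which inserts bases opposite platinum-linked guanines, was called in 2 pairs and in opposite directions. It was lower in PEA2 (1386, 1134 and 1063) than in PEA1 (2024, 1711 and 1937), by -0.66 ± 0.23 on the log2 scale (adjusted p = 0.0101, and 0.164 without replicate 1). It was higher in PEO4 (1047, 1089 and 1223) than in PEO1 (661, 667 and 860), by 0.65 ± 0.18 (adjusted p = 0.00173). Libraries of the 2 lines did not overlap in either pair, but the PEO4 call was lost without replicate 1 (0.14) or 2 (0.089). PEO6 lay between and overlapped PEO1, with a change of 0.27 ± 0.24 (adjusted p = 0.387).

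POLI, an error-prone inserter, was called in 1 pair, and its values there were uneven. PEO6 libraries had 1814, 1710 and 720 against 614, 864 and 479 in PEO1 and 478, 451 and 630 in PEO4. Replicates 1 and 2 of PEO6 held the highest POLI counts of all 33 libraries, and replicate 3 lay within the range of PEO1. The change was 1.02 ± 0.26 against PEO1 (adjusted p = 0.000386, at most 0.0487 with any 1 replicate left out) and 1.31 ± 0.38 against PEO4 (adjusted p = 0.00591, and 0.449 without replicate 2 or 0.257 without replicate 1). In the OVCAR4 derivatives replicate 1 stood alone, at 302 in ResA and 407 in ResB, and the other 4 libraries had 106 to 169.

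REV1, the scaffold that also inserts cytosine, was called in none of the 10 comparisons of 2 lines. Its log2 changes ran from -0.31 ± 0.26 in PEA2 to 0.51 ± 0.25 in PEO6 (95% interval 0.03 to 0.99; adjusted p = 0.0845), so a moderate rise in PEO6 remained within reach of the data. Within lines, however, REV1 was far from constant. In PEO6 it had 1910, 1669 and 904, in OVCAR4 ResA 1637, 894 and 947, and in OVCAR4 ResB 1698, 839 and 752. The libraries that were high for REV1 in these lines were those that were high for POLI.

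This pairing of POLI and REV1 ran through nearly all lines. The library with the highest POLI count was also that with the highest REV1 count in 10 of 11 lines, the exception being OVCAR3 ResB, and the 2 genes deviated from their line means with the same sign in 29 of 33 libraries. Among 12127 other genes averaging 100 normalised counts or more, 2.8% matched the highest REV1 library in at least 10 lines, the median being 3 lines. The 2 genes were singled out among the members after this pattern had been seen, and the 2.8% does not allow for that choice. They stand on different chromosomes (18 and 2). Both promoter windows printed above held the E-box, a motif also picked after the values were seen, and a shared regulator was not tested. The points share libraries, and the library with the highest rRNA share was also the highest for REV1 in 7 lines and for POLI in 6, so no test was attached to this pattern. In TPM, POLI over REV1 was 1.5, 1.45 and 1.3 in the 3 PEO6 libraries and 1.35, 1.31 and 1.2 in those of PEO1, and 0.308, 0.207 and 0.209 in OVCAR4 ResA. The ratio varied more in OVCAR3, from 0.345 to 0.589, and its line means ran from 0.241 in OVCAR4 ResA to 1.42 in PEO6.

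**Figure D3:**
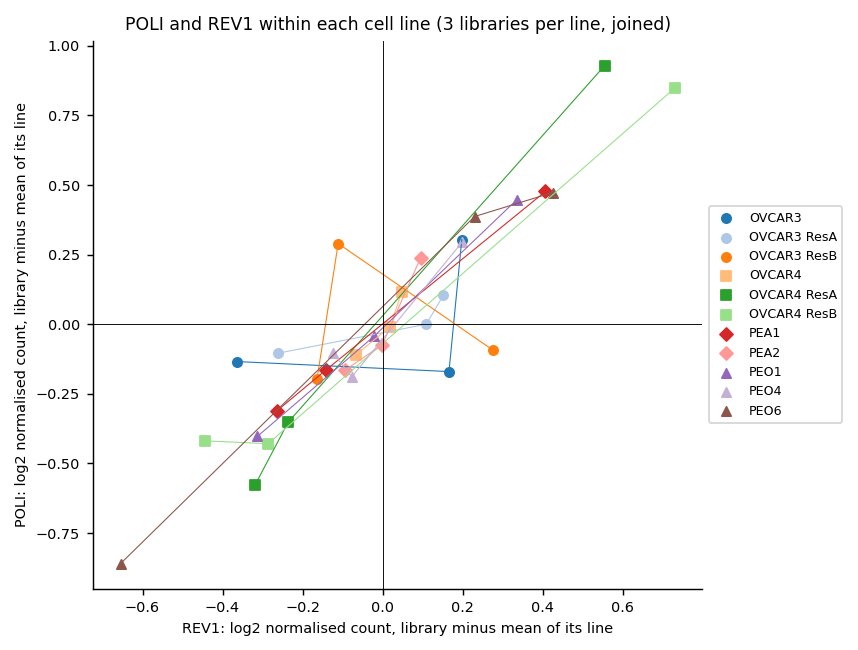
Deviation of POLI (y axis) and REV1 (x axis) from the mean of the line, as log2 normalised counts, for 33 libraries with the 3 of a line joined. Squares are OVCAR4 lines, triangles PEO lines, circles OVCAR3 lines and diamonds PEA lines. Points run from -0.86 to 0.93 for POLI along a rising diagonal, and 29 of 33 have the same sign on both axes.

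POLK, polymerase kappa, was the member with the most uniform direction outside the PEO family. It was higher in PEA2 (1086, 1131 and 1377) than in PEA1 (540, 568 and 742), by 0.97 ± 0.23 on the log2 scale (adjusted p = 0.000102, and 0.0586 without replicate 1). OVCAR4 ResA had 722, 1059 and 1024 and OVCAR4 ResB 697, 1050 and 924 against 538, 351 and 464 in OVCAR4. All libraries of the resistant lines lay above those of the sensitive one in these 3 pairs. The change was 1.03 ± 0.37 in OVCAR4 ResA (adjusted p = 0.0474) and 0.97 ± 0.38 in OVCAR4 ResB (adjusted p = 0.0551), close in size. Same-numbered libraries did not deviate together in either pair, and without the replicate block the ResB change was called (adjusted p = 0.00421). Both rested on which replicates entered. With replicate 1 left out the adjusted p was 5.48e-07 for ResA and 9.95e-07 for ResB. The ResA value was 0.782 or 0.794 when replicate 2 or 3 was left out instead. Without replicate 1, rRNA shares reached 14.8% in OVCAR4, against 2.02% to 2.47% in ResA and ResB. Across the 11 lines, the library with the highest rRNA share was the lowest for POLK in 7, with no share over all genes beside it. In a fit of all 33 libraries the changes were 1.04 in ResA and 0.97 in ResB. With the rRNA share as a covariate in place of the replicate block they were 0.82 (adjusted p = 6.5e-05) and 0.80 (adjusted p = 4.46e-05). In OVCAR3 ResA the rise was 0.41 ± 0.17 (adjusted p = 0.0403, lost whichever replicate was left out, at 0.108 to 0.486). In PEO4 POLK was instead -0.39 ± 0.19 (adjusted p = 0.0978), and in PEO6 -0.05 ± 0.24.

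POLK shares 1208 bases with CERT1, a ceramide transfer gene listed as COL4A3BP, and strand use in the counting is not stated, so some reads of the 2 cannot be told apart. CERT1 was higher by 1.34 ± 0.25 in PEA2 (adjusted p = 9.07e-07), by 1.76 ± 0.38 in OVCAR4 ResB (adjusted p = 6.98e-05) and by 0.39 ± 0.15 in OVCAR3 ResA (adjusted p = 0.0254). It was 0.90 ± 0.38 in OVCAR4 ResA (adjusted p = 0.111) and fell in PEO4 and PEO6, by -0.47 ± 0.19 and -0.82 ± 0.23 (adjusted p = 0.0396 and 0.00131). CERT1 had line means of 657 to 4719 estimated counts, up to several times those of POLK, and the part of shared reads in the POLK values was not tested. Of the other overlaps, REV1 shares 850 bases with the abundant EIF5B, while DRAXIN (over MAD2L2) and PCNA-AS1 never exceeded 11 and 20 counts in a library and the PCNA copy PCNAP1 had 0.

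REV3L, the catalytic subunit of polymerase zeta that extends from damaged bases, moved in both directions. It had 1524, 1239 and 1340 in PEO1, 3963, 3067 and 2118 in PEO4, and 725, 753 and 994 in PEO6. The 3 lines did not overlap, PEO4 lying above and PEO6 below the sensitive line. The change was 1.14 ± 0.19 in PEO4 (adjusted p = 5.6e-08, kept without each replicate) and -0.76 ± 0.24 in PEO6 (adjusted p = 0.00481, but 0.118 without replicate 1 and 0.0812 without replicate 2). Set against each other, PEO6 was below PEO4 by -1.91 ± 0.33 (adjusted p = 3.83e-07, at most 0.00975 with any 1 replicate left out), the largest change of any member in the 10 comparisons. The study regards PEO4 and PEO6 as likely to share a clone.

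In PEA2, REV3L was lower and MAD2L2 higher, so that the messages of the 2 polymerase zeta subunits parted. REV3L had 614, 532 and 515 in PEA2 and 877, 652 and 1084 in PEA1, a change of -0.62 ± 0.26 (adjusted p = 0.0409, and 0.27 and 0.273 without replicate 1 and 3). MAD2L2 had 927, 905 and 1142 in PEA2 and 438, 352 and 429 in PEA1, a change of 1.30 ± 0.24 (adjusted p = 5.04e-07, at most 0.00442 with any 1 replicate left out). The 2 lines did not overlap for either gene. MAD2L2 was not called in any other comparison, the nearest being PEO4 at 0.45 ± 0.20 (adjusted p = 0.0693).

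REV7 also acts outside polymerase zeta, as in the shieldin complex at broken ends. In TPM, MAD2L2 exceeded REV3L in every library. The ratio was 16.8, 18.5 and 24.3 in PEA2, with a mean of 19.9 ± 3.91, and 5.49, 5.82 and 4.3 in PEA1. It was lowest in PEO4 (2.19 ± 0.661), against 3.44 ± 0.739 in PEO1 and 6.25 ± 0.229 in PEO6. The remaining lines lay between 3.0 and 7.87, so that PEA2 stood apart from the other 10 lines and PEO4 and PEO6 lay on either side of PEO1.

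**Figure D4:**
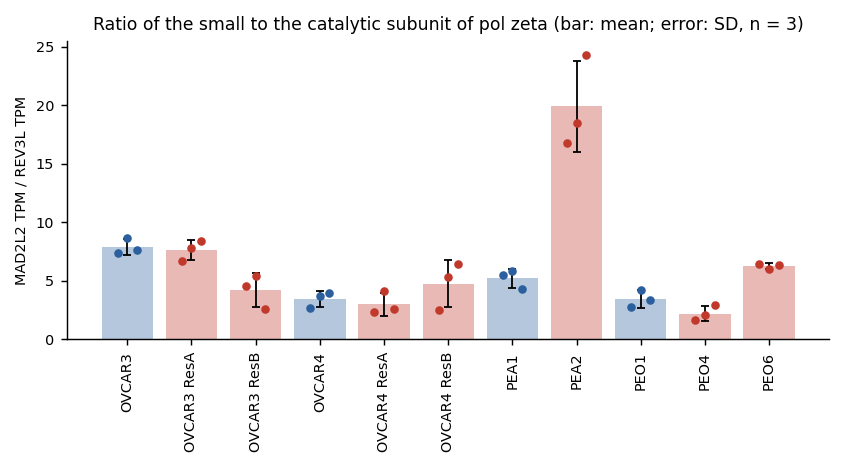
TPM of MAD2L2 divided by TPM of REV3L (y axis, from 0) in each line (x axis). Bars are means of 3 libraries, error bars their SD and points the libraries, blue for sensitive and red for resistant lines. The 3 PEA2 libraries, at 16.8 to 24.3, lie above all the others, of which the highest is 8.64.

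PEA1 and PEA2 also differed widely in markers of cell type, and those values stand beside the 4 calls of this pair. Of 9 epithelial and Mullerian markers, 7 were higher and 0 lower in PEA2, with summed levels of 4240 to 4530 TPM against 405 to 448 in PEA1. The 5 fibroblast markers summed to 69.6 to 116 TPM in PEA1 and 0.635 to 1.12 in PEA2, with 2 and 3 of them at 0 in all libraries of the line. The 5 leukocyte markers summed to 10.4 to 23.5 TPM in PEA1 and 55.2 to 57.6 in PEA2, with MS4A1 at 0, and the 3 endothelial markers to at most 0.109 and 8.76. Their part in the POLH, POLK, REV3L and MAD2L2 differences was not tested.

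POLQ, the end-joining polymerase, was called in 1 of the 7 pairs, PEO6 against PEO1. It had 479, 256 and 582 in PEO6 against 751, 694 and 1102 in PEO1 and 874, 787 and 851 in PEO4. No PEO6 library reached the lowest library of the other 2 lines. The change was -1.02 ± 0.26 against PEO1 (adjusted p = 0.000357, and 0.0717 without replicate 2) and -1.06 ± 0.33 against PEO4 (adjusted p = 0.0123, with 0.125 and 0.598 without replicate 1 and 2). Between PEO4 and PEO1 the change was 0.03 ± 0.20, with a 95% interval of -0.36 to 0.43. Of 12 other genes of this end-joining route or its competitors, 2 were higher and 4 lower in PEO6 than in PEO1, near the 21.2% and 20.3% of all genes.

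Resistant lines of 1 family were also compared with each other. In OVCAR3 ResB against OVCAR3 ResA, 0 of 9 members were called (13.5% of all genes, 7.47% higher and 6.04% lower), also by edgeR, with 0 at an unadjusted p under 0.05. In PEO6 against PEO4, 3 of 9 were called (18.2%, with 9.86% higher and 8.33% lower), the POLI, POLQ and REV3L differences given above. In OVCAR4 ResB against OVCAR4 ResA, 4 of 9 were called (32.8%, with 16.2% higher and 16.5% lower), all higher in ResB: POLH by 0.34 ± 0.11 (adjusted p = 0.00645), POLI by 0.53 ± 0.21 (0.0385), RAD18 by 0.49 ± 0.11 (3.82e-05) and PCNA by 0.29 ± 0.08 (0.00138). Same-numbered libraries of ResA and ResB deviated together (r = 0.641, 0.492 and 0.515), and without the replicate block none of the 4 was called (adjusted p = 0.147 to 0.741). Each of the 4 was lost without replicate 2, at 0.155 to 0.536. OVCAR3 ResA and OVCAR3 were paired in the same sense, and their 2 calls, POLK and PCNA, had adjusted p = 0.108 and 0.149 without the block.

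Of the 16 calls between resistant and sensitive lines, 5 were kept whichever replicate was left out: MAD2L2 in PEA2, REV3L and PCNA in PEO4, and POLI and RAD18 in PEO6. Among the resistant lines 1 of 7 was, REV3L in PEO6 against PEO4. A likelihood ratio test over all 33 libraries asked whether the 7 resistant-sensitive changes of a gene were equal. It called 8 of 9 members (70.2% of all genes), with REV3L the most uneven (adjusted p = 2.49e-14) and REV1 the exception (adjusted p = 0.521). The edgeR quasi-likelihood F test was added because the likelihood ratio test gave many false calls on simulated counts. It called the same 8, with adjusted p = 4.69e-06 for REV3L and 0.463 for REV1. The share of all genes called by the F test is not given, so its count is not a result about the members.

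At the level of lines no member separated resistant from sensitive. With the counts of each line summed and family as a covariate, 0 of 9 members were called by DESeq2 (0.286% of all genes, 0.13% higher and 0.156% lower) and 0 had an unadjusted p under 0.05, and the edgeR test called 0 as well. POLK came nearest, at 0.46 ± 0.27 (DESeq2 adjusted p = 0.976 over all genes). The others lay between -0.30 ± 0.26 for PCNA and 0.20 ± 0.30 for MAD2L2. Standard errors ran from 0.19 to 0.42 on the log2 scale. In counts simulated for this test over 29744 genes, all changes of 1 on that scale were called, with 13.0% of calls false, and smaller ones were not simulated. The simulated lines differed only by the planted changes and by library noise of a fixed size. Real lines also differ from each other, so the simulation does not show which changes the test could find here.

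Around several of the called members, many neighbouring genes on the chromosome were called in the member's own direction. For each of the 23 calls, the 10 nearest tested genes on either side were counted, a step added after the values had been seen. Around PCNA (chr20:5114953-5126622) 16 of 20 were lower in PEO4 than in PEO1 and 0 higher, against 16.7% lower among all genes, with a median log2 change of -1.25 over 2.23 Mb. Examples on either side, picked after their values were seen, were CDS2 (-1.25), TMEM230 (-1.04) and the replication helicase gene MCM8 (-1.10), beside -0.98 for PCNA itself. Around POLH (chr6:43576185-43620523) 14 of 20 were higher in PEO4 and 0 lower (16.6% higher among all genes), with a median of 0.86 over 1.08 Mb.

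The same held for REV3L (chr6:111299033-111483711) in PEO6. Against PEO4, 14 of 20 neighbours were lower and 1 higher (8.33% of all genes lower), over 6.56 Mb. Against PEO1, 13 of 20 were lower and 2 higher (20.3% lower), over 6.15 Mb. The rise of REV3L in PEO4 did not have this surrounding, with 4 of 20 neighbours higher and 2 lower (16.6% higher). Around POLK (chr5:75510774-75609991) 14 of 20 were higher and 1 lower in PEA2 (23.3% higher). Around RAD18 (chr3:8877075-8963472) 10 of 20 were lower and 0 higher in PEO4 (16.7% lower), and 9 lower and 2 higher in PEO6 (20.3% lower). In OVCAR4 ResB against ResA, 11 of the RAD18 neighbours were higher and 0 lower (16.2% higher). Around PCNA in OVCAR3 ResA 12 of 20 were higher and 2 lower (22.0% higher). Around MAD2L2 (chr1:11674480-11691830) in PEA2 9 of 20 were higher and 2 lower (23.3% higher).

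Around other calls fewer neighbours were called in the member's direction. Around POLI (chr18:54269479-54321266) 2 of 20 neighbours were higher and 7 lower in PEO6 than in PEO1 (21.2% higher among all genes), and around POLQ (chr3:121431431-121545988) 3 were lower and 4 higher (20.3% lower). In PEA2, 3 were lower and 2 higher around POLH, and 8 lower and 6 higher around REV3L (23.8% lower among all genes). POLK had 6 higher and 5 lower in OVCAR3 ResA (22.0% higher), and 4 higher and 2 lower in OVCAR4 ResA (6.68% higher). PCNA had 7 lower and 3 higher in PEO6 (20.3% lower) and 3 higher and 2 lower in OVCAR4 ResB against ResA (16.2% higher), fewer than in PEO4. DNA copy number is not in these data, and neighbours on a chromosome are not independent, so no test was made and the part of copy number was not tested.

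**Figure D5:**
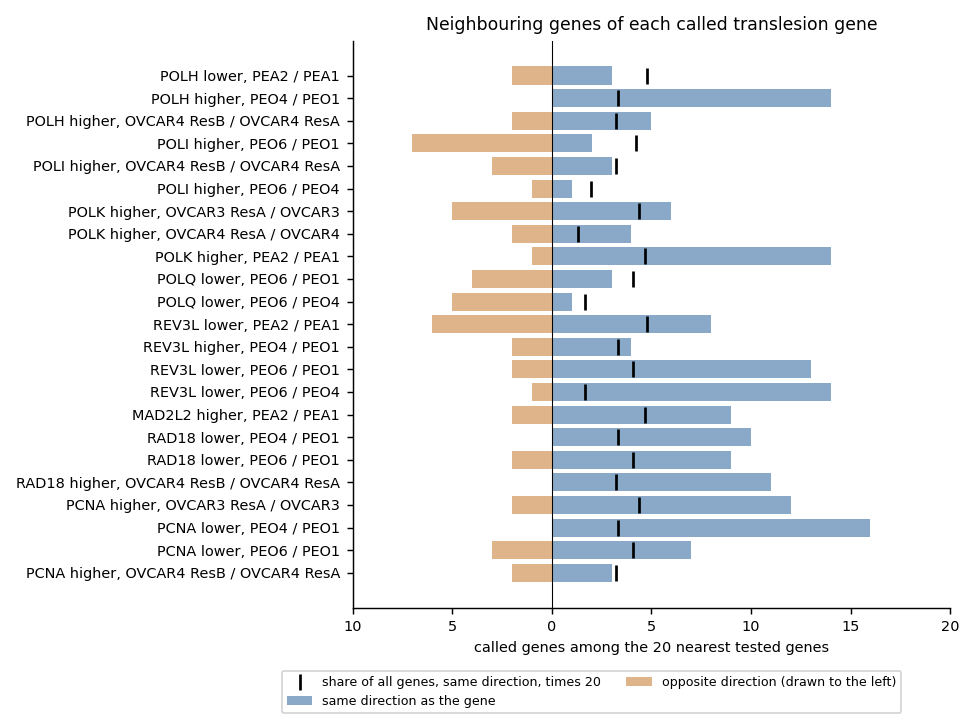
Number of called genes among the 20 nearest tested genes (x axis) for each of the 23 calls of a member (y axis), to the right where they changed in the same direction as the member and to the left where opposite. Black marks give the share of all tested genes called in the member's direction, times 20. PCNA, POLH and RAD18 in PEO4 have 16, 14 and 10 neighbours on their side and 0 on the other, and POLI in PEO6 has 2 and 7.

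Further genes of the pathway are given as counts, beside the shares of all genes called that stand with the 7 pairs above. No gene of these lists was called in the same direction in 5 or more of the 7 pairs, a bar that pairs with few calls make hard to reach. Some kept 1 sign over all 7 pairs: RAD50, of the break-sensing MRN complex, ran from 0.06 to 1.21 (log2; called higher in 3), and the clamp-associated PCLAF from -1.71 to -0.11, the template-switching ligase HLTF from -0.62 to -0.02 and the ubiquitin-conjugating subunit UBE2V2 from -0.99 to -0.10, each called lower in 2. In the list for replication fork and S phase, MCM4 also kept 1 sign, from -1.10 to -0.18, and was called lower in 3. These genes were picked after their values were seen. The share of all genes that kept 1 sign is not given, and pairs with the same sensitive line are not independent.

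Of 16 genes for clamp ubiquitination and template switching, 3 were higher and 4 lower in OVCAR3 ResA, 0 and 4 in PEA2, 4 and 1 in PEO4 and 3 and 5 in PEO6, with at most 3 called in the other pairs. Of 8 further bypass genes and shared subunits of polymerase zeta, 3 were higher and 0 lower in PEA2 (47.0% of all genes called), and 0 and 2 in PEO6 (41.4%). Of 7 REV7 partners and shieldin genes in the tables, 3 were higher and 3 lower in PEO6, 2 and 1 in PEO4 (33.3% of all genes called) and 1 and 0 in PEA2. Of 12 end-joining genes, 2 were higher and 5 lower in OVCAR3 ResA (44.9%) and 5 and 2 in PEA2.

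Of 18 targets of p53, a regulator that also acts on POLH and PCNA, 0 were higher and 8 lower in OVCAR4 ResA, where 6.68% of all genes were higher and 5.22% lower. The same list had 7 higher and 1 lower in OVCAR3 ResA (22.0% and 22.9% of all genes), 2 and 0 in OVCAR3 ResB (4.1% and 3.57%) and 1 and 2 in OVCAR4 ResB (9.09% and 8.77%). It was mixed in the patient lines, with 8 and 4 in PEA2 (23.3% and 23.8%), 4 and 5 in PEO4 (16.6% and 16.7%) and 5 and 4 in PEO6 (21.2% and 20.3%).

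The genes most similar to each member over the 11 line means of log2 normalised counts are given as a description. They were GLRX2 for POLH (r = 0.964), VSTM2L for POLI (0.954), PTPLB for POLK (0.97), C3orf52 for POLQ (0.92), LOC100506473 for REV1 (0.876), BCLAF1 for REV3L (0.95), DACT2 for MAD2L2 (0.956), OXSR1 for RAD18 (0.963) and IDH3B for PCNA (0.951), out of 12128 genes compared. Next in likeness were RNF139 for POLI, KLHL11 for POLK, PTPN21 for POLQ, CPQ for REV1, SNRNP27 for REV3L, RASGEF1A for MAD2L2, RPS6KA3 for RAD18 and HOXB6 for PCNA. BCLAF1, C3orf52, OXSR1 and IDH3B lie on the chromosome of their member. Among the members themselves, r over the 11 lines ran from -0.86 (POLI and POLQ) to 0.67 (POLK and RAD18), and between REV1 and POLI, which moved together within lines, it was 0.44. Lines of 1 family share an origin, so the 11 points are not independent.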

How the data were processed

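RNA of 33 libraries (11 lines, 3 replicates each) was sequenced after KAPA mRNA HyperPrep library preparation. Per the submitters' processing notes, nf-core/rnaseq with salmon was used on GRCh38, and the authors deposited merged tables of estimated counts and of TPM per gene. The strand setting is not given in the sources used here. Estimated counts, of which 88.4% were whole, were rounded. Each pair of lines (6 libraries) was fitted in DESeq2 1.42.0 (R 4.3.3; Wald test, replicate as block, adjusted p under 0.05 over all genes). Alternatives used edgeR 4.0.16, limma 3.58.1 on log2(TPM + 1) or log2(TPM + 0.1), other scalings, filters and sets of libraries. Counts summed per line, with family as covariate, gave the line-level test. TPM served for levels of different genes, ratios within a library, sums of marker genes and the limma alternatives. Library totals of 18058985 to 43394009 counts set the precision, and no interval covers more than the spread between libraries. The replicate number paired libraries, with all 3 correlations of deviations above 0.1, in OVCAR3 ResA with OVCAR3 (0.732, 0.298 and 0.529) and OVCAR4 ResB with OVCAR4 ResA. On simulated counts for OVCAR4 ResA against OVCAR4, over 29744 genes, DESeq2 recovered 88.0% of changes of 1 and 100.0% of changes of 2 on the log2 scale. In a separate simulation of the equality test over all lines, 30.1% of the calls of the likelihood ratio test were false, against 4.76% for the edgeR F test. The simulated spread between libraries was set in advance, alike for all genes, and was not taken from these libraries. The named genes were the 9 members, list genes called alike in at least 5 of the 7 pairs (none) and the 2 genes most like each member, of which 1 is not reported here. Members, lists and tests were chosen with earlier results of these data known. Promoters and positions came from RefSeq, GRCh38.p14.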

Additional observations from a re-analysis of the deposited data

Results flagged for a closer look

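For 8 of the 9 genes the 7 resistant-sensitive changes differed from each other in the DESeq2 likelihood ratio test over all 33 libraries, as did those of 70.2% of all genes. The adjusted p was 2.49e-14 for REV3L, 9.56e-08 for MAD2L2, 1.01e-07 for POLH, 9.77e-07 for POLK, 1.35e-05 for RAD18, 0.000871 for POLQ, 0.0075 for POLI and 0.0112 for PCNA. On simulated counts this test gave too many calls. By the edgeR quasi-likelihood F test the same 8 were called, with adjusted p from 4.69e-06 for REV3L to 0.0288 for PCNA. The share of all genes called by the F test is not given, so its count is not a result about the members. Without replicate 2 the likelihood ratio test no longer called POLI (0.341), POLQ (0.233) or PCNA (0.119), and without replicate 3 it no longer called PCNA (0.0621). The changes behind these values are given for each gene above.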

How the results depend on the processing

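No value of a called change reversed in any of the 13 alternatives. Of 299 comparisons of the 23 called changes with an alternative, 209 kept the call and 90 lost it. Among uncalled changes, 36 of 871 gained a call and 88 took the other sign while uncalled. The low-count filter kept all 23 calls, TMM factors and the length offset 21 each, and edgeR 20. The cause of the shifts below was not tested.

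Counts of members called moved as follows. The share of all genes called under each alternative is not given, so these shifts are not a result about the members. In OVCAR3 ResA (2 called) the count was 0 with no replicate block, 0 with all 33 libraries in one fit and 0 to 1 with a replicate left out. In OVCAR3 ResB (0) it was 1 with the rRNA share as covariate in place of the replicate block, an alternative chosen after seeing the data. In OVCAR4 ResA (1) it was 0 with TMM factors, edgeR, the length offset and each of the 3 limma fits, 3 without the block, 2 with all 33 libraries, 2 with the rRNA share and 0 to 4 with a replicate left out. In OVCAR4 ResB (0) it was 1 with the filter, 1 without the block, 2 with all 33, 3 with the rRNA share and 0 to 4 with a replicate left out. PEA2 (4) had 2, 2 and 1 with limma at a pseudocount of 1, of 0.1 and without a filter, and 1 to 4 with a replicate left out. PEO4 (4) had 2, 2 and 1 in the same order, and 2 to 6. PEO6 (5) had 2 at a pseudocount of 0.1, 3 without a filter, and 2 to 4. In OVCAR3 ResB against ResA (0) it was 1 with all 33 and 2 with the rRNA share. In OVCAR4 ResB against ResA (4) it was 0 without the block, 0 with all 33, 1 with the rRNA share, 2 and 1 with limma at 0.1 and without a filter, and 0 to 3. In PEO6 against PEO4 (3) it was 1 with edgeR, 5 with the rRNA share, 1, 0 and 0 with the 3 limma fits, and 1 to 5. The equality count (8) was 5 to 8 with a replicate left out.

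The replicate number paired libraries in 2 of 10 comparisons. In the other 8 at least 1 of the 3 correlations did not exceed 0.1, as in PEO4 with PEO1 (0.476, 0.0464 and 0.237). Without the replicate block 17 of the 23 calls over all 10 were kept and 5 gained: POLK in OVCAR4 ResB (0.00421), POLH (0.0437) and PCNA (0.0328) in OVCAR4 ResA, RAD18 in PEA2 (0.0298) and MAD2L2 in PEO4 (0.038). No member was called at the level of lines under any setting run, POLK without the PEO family coming nearest (0.73, adjusted p = 0.185).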
